A study of Mus musculus with 2 samples.

Results

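Long intergenic noncoding RNAs that lie close to an annotated protein-coding gene were described in 2 kinds of mouse pluripotent cells, each beside its nearest gene. The array carries 16181 probes for 4607 such transcripts, each named by a genomic interval and a strand. A transcript was taken where the midpoint of one of its probes, on the mm9 assembly, lay within 10 kb of the midpoint of a probe for a RefSeq mRNA, and where the probe was well above background on at least 1 array. Of the 4607 names, 1030 had a probe within 10 kb, and 856 of these (83.1%) were detected on at least 1 array, which left 174 that were not. Each transcript took the value of its brightest detected probe within that distance, and the choice used neither the direction nor the size of a difference. Among the 3568 names with no probe within 10 kb of an mRNA probe, 79.0% were detected.

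Long intergenic noncoding RNAs are transcripts of intervals between annotated genes that are not known to be translated. Many are spliced and polyadenylated like mRNAs, and in embryonic stem cells members of the class have been tied to the maintenance of pluripotency. Those that start or end close to a gene can be independent transcripts, can arise together with the gene from a shared promoter region, or can be unannotated ends of its mRNA, so the strand and the distance to the gene matter for reading them.

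Both groups came from E14Tg2A, an embryonic stem (ES) cell line of the 129/Ola strain grown with serum and LIF, the cytokine that holds ES cells undifferentiated. EpiSC, epiblast stem cells, were made by exposing the ES cells directly to FGF2 (12 ng/mL) and Activin A (20 ng/mL) in a chemically defined minimal medium, while ELA-EpiSC received the same factors after the ES cells had first formed Epiblast-Like Aggregates, floating clusters that appear once serum and LIF are withdrawn. The comparison addresses whether both routes lead to the same RNA content. Each group had 1 array, hybridized with total RNA pooled from 3 sets of experiments of this single line, so no difference below has a replicate check and no p-value is given. The source fields in the labels name undifferentiated cells for both samples, as an Argonaute immunoprecipitate for EpiSC and as total RNA for ELA-EpiSC. The groups were taken from the titles and descriptions instead.

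The sequences below are the 60-base probes of 11 transcripts with differences past 2-fold, as the array files give them, 5′ to 3′ on the strand of the transcript with their mm9 position. They show what was measured for the transcripts on which the results turn. Capitals mark the polyadenylation signal AATAAA, and all other bases are in lower case.
chr5:15033762-15033821, forward strand, near Gm17019: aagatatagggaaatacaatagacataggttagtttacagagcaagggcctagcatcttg
chr6:40718898-40718957, forward strand, near Mgam, shorter interval: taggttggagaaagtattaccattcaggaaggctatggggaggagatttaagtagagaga
chr6:40718909-40718968, forward strand, near Mgam, longer interval: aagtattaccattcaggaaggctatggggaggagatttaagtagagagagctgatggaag
chr13:56851593-56851652, reverse strand, near Smad5: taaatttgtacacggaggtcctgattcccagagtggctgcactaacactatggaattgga
chr17:85423107-85423166, forward strand, near Ppm1b: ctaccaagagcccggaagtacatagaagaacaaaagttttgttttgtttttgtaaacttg
chr2:33501799-33501858, forward strand, near Lmx1b: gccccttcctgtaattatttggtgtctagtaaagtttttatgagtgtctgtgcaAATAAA
chr2:22796491-22796550, forward strand, near Abi1: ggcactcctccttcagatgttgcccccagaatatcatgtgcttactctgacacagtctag
chr8:119092776-119092835, reverse strand, near Cdyl2, longer interval: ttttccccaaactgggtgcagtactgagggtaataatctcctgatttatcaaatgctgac
chr8:119092715-119092774, reverse strand, near Cdyl2, shorter interval: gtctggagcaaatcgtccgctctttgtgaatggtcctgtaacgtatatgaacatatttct
chr6:57612816-57612875, forward strand, near Herc6: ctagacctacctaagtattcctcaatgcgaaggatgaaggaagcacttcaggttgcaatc
chr1:63327389-63327448, forward strand, near Zdbf2: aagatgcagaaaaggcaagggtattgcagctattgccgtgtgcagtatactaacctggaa
The pair of Mgam intervals are nested and their probes overlap, so largely the same stretch of the genome was measured under both names. The pair of Cdyl2 probes lie side by side without overlap on the reverse strand. The probe near Lmx1b ends with AATAAA. No genome or gene model of the mm9 assembly was used here, so exons, introns and untranslated regions are not given for these positions.

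Among the 856 transcripts, 434 were named on the forward and 422 on the reverse strand. They lay in 687 distinct intervals, 169 of which had a member on each strand. Because named intervals overlap, they fell into 641 separate stretches when overlapping intervals of 1 strand were merged. The interval itself had a median length of 7197 bases and ranged from 100 to 350551 bases. The distance to the nearest mRNA probe had a median of 4302 bases, with quartiles of 1886 and 6928, and the transcripts just inside and just outside the limit lay at 9998 and 10020 bases.

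The nearest genes numbered 455. Of the 856 transcripts 643 shared their gene with another member, up to 8 for 1 gene, so members that share a gene are not independent of each other. The transcript was on the strand of its gene in 479 cases (56.0%) and on the opposite strand in 377. On the same strand 366 lay downstream of the gene's probe and 113 upstream, and on the opposite strand the counts were 265 and 112. Array probes for mRNAs usually sit near the 3′ end, so downstream here means beyond the probe and not necessarily beyond the gene. In 178 cases the named interval extended across the gene's own probe, on the same strand in 98 of them, and 19 member probes overlapped the gene's probe on the same strand. In those cases, whether the member probe lies in the gene's own transcript was not tested.

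The probe sequences were compared with those of other intergenic transcripts and of mRNAs. Their median GC content was 45.0%, against 45.0% for the 2817 detected transcripts farther than 10 kb from a gene and 41.7% for 16147 detected RefSeq mRNA genes. The polyadenylation signal AATAAA stood in the printed strand of 4.09% of the 856 probes, in 4.33% of the far intergenic probes and in 15.5% of the mRNA probes. The variant ATTAAA stood in 3.39%, 1.99% and 4.94%. On the complementary strand, AATAAA was found in 4.21%, 2.45% and 4.68%, and ATTAAA in 3.27%, 2.02% and 2.76%. These are matches of letters within a 60-base window, and 28 of the member probes shared a run of at least 20 bases with a probe placed elsewhere, so their signal may hold RNA from both places.

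The arrays were alike in breadth, with 65.9% of 55681 probes detected in EpiSC and 65.0% in ELA-EpiSC, and no spot saturated on either. Both groups carried a short list of pluripotency and epiblast genes: Pou5f1, Sox2, Nanog, Fgf5, Otx2 and Dnmt3b were all detected, and 0 of the 6 differed by 2-fold or more. Of the 24 visceral endoderm markers all were detected, their mean log2 intensity was 10.4 in EpiSC and 9.27 in ELA-EpiSC, and 9 were at least 2-fold higher in EpiSC against 1 in ELA-EpiSC. Mesenchymal markers ran the other way, with 12 of 13 detected, 5 at least 2-fold higher in ELA-EpiSC and means of 8.89 in EpiSC and 9.88 in ELA-EpiSC. Of the neural markers 15 of 17 were detected, with 2 higher in ELA-EpiSC and 3 in EpiSC. Their mean was 8.92 in EpiSC and 8.42 in ELA-EpiSC, but their summed signal was 29444 and 63402. All 9 of 9 trophoblast markers were detected, with 1 higher in ELA-EpiSC, 3 in EpiSC and means of 10.1 in EpiSC and 9.34 in ELA-EpiSC. In bulk RNA, fewer cells of a type and less RNA per cell cannot be told apart, and the part of these cell types in the differences of the intergenic transcripts was not tested.

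The intergenic transcripts near genes differed little between the groups. Intensities are log2 after normalization, a difference is ELA-EpiSC minus EpiSC, and a transcript counts as different where the difference reached 1 on the log2 scale, which is 2-fold, with a mean of at least 7.5 over both arrays, sizes taken from the study's methods. Of the 855 transcripts with a value on both arrays, 353 reached the mean of 7.5 and 502 lay below it. Among the 353, 8 (2.27%) had their higher signal in ELA-EpiSC and 11 (3.12%) in EpiSC. Over all 16653 features of the array the share past the same limits was 4.56% toward ELA-EpiSC and 4.47% toward EpiSC, and over 12077 RefSeq mRNA genes it was 5.73% and 4.97%. The 1129 intergenic transcripts farther than 10 kb from a gene gave 1.59% and 2.92%, close to the members' shares. With no minimum on the mean, the counts over the 855 were 9 toward ELA-EpiSC and 12 toward EpiSC. The split depended on how the arrays were scaled to each other. With the medians of the arrays matched in place of all quantiles it was 14 against 4. Over all features that scaling changed the split from 759 against 745 to 1114 against 516. With the 8 detected spike-in probes matched it was 37 against 4 for the members and 2497 against 304 for all features. Matching the spike-in probes moves every difference by the same 0.54, so the median of the members relative to all features stayed at -0.01 by construction.

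The median difference of the 353 transcripts was -0.01, and 48.7% of the differences were above 0. Most were small, with 82.2% within 0.5 of 0 on the log2 scale, against 69.3% of mRNA genes and 84.0% of far intergenic transcripts. The SD of the differences was 0.53, which is 5.21 times the SD of 0.10 that repeated spots of 1 probe gave for a difference, and 23.8% of the transcripts differed by less than that spot error. The spot error covers the array and not the cells. The mRNA genes had an SD of 0.70 and the far intergenic transcripts one of 0.51. The 351 nearest genes of the members that reached a mean of 7.5 had an SD of 0.56, with 75.2% within 0.5 of 0. Of these nearest genes 6.27% differed by 2-fold or more, against 5.38% of the members and 10.7% of all mRNA genes. The narrow spread of the members was thus partly shared by the genes beside them. The gap to all mRNA genes was present at each level of signal. Between a mean log2 of 7.5 and 9, 6.06% of the 198 members differed by 2-fold or more against 17.5% of mRNA genes. Between 9 and 11 it was 5.21% of 96 members against 12.2%, and above 11 it was 3.39% of 59 members against 7.31%.

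**Figure D1:**
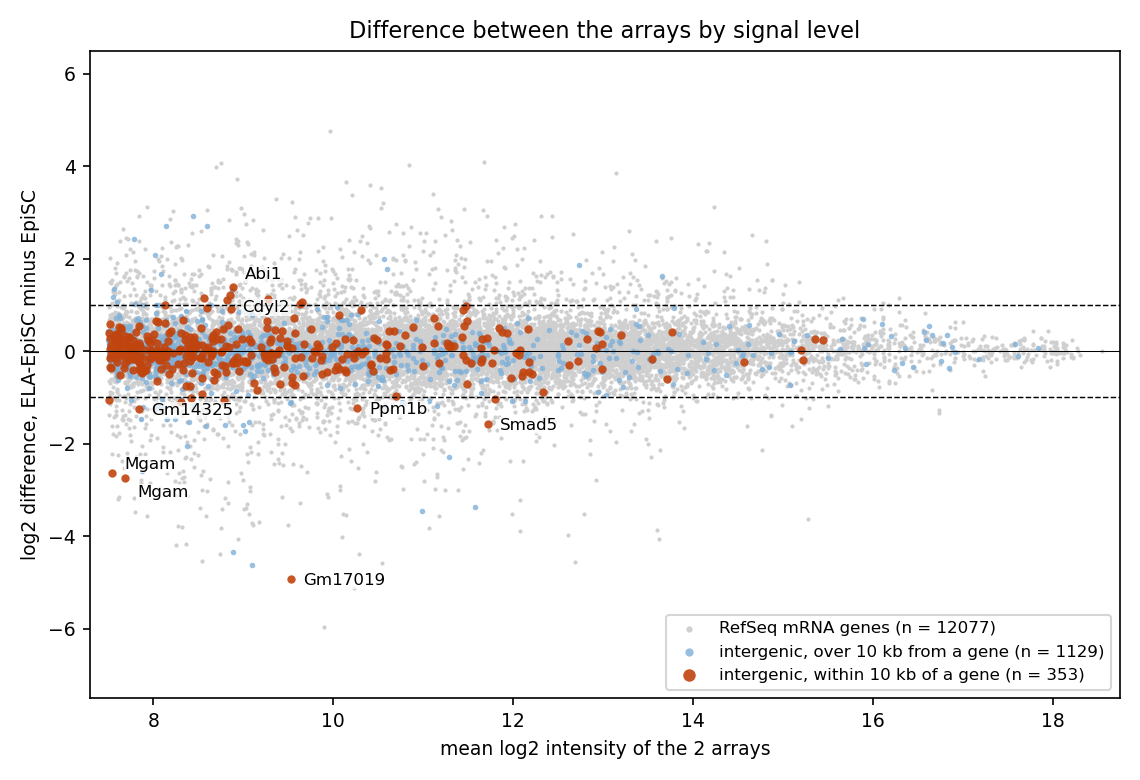
The log2 difference, ELA-EpiSC minus EpiSC, is plotted against the mean log2 intensity of both arrays for features with a mean of at least 7.5. Red points are the 353 intergenic transcripts within 10 kb of a gene, blue points the 1129 farther ones and grey points the 12077 RefSeq mRNA genes. Dashed lines mark 2-fold, labels give the nearest gene of members past 1.2 on the log2 scale, and the red points stay in a narrower band than the grey ones except for the transcripts near Gm17019 and Mgam.

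The largest difference belonged to a transcript of 420 bases on the forward strand of chromosome 5, upstream of the predicted gene Gm17019 and on the opposite strand. Its log2 intensity was 12.00 in EpiSC against 7.06 in ELA-EpiSC, differing by -4.93. It was far brighter in EpiSC, and 2 further probes of the same interval differed by -4.13 and -3.77. Gm17019, at a distance of 2100 bases, was dim, at 6.41 and 6.62. A pair of further forward-strand intervals nearby also had their higher signal in EpiSC, but at a mean below 7.5. The one near Gm10354 read 7.95 and 6.39, and the one near Speer4e, of the Speer family of genes expressed in the testis, read 7.61 and 6.67.

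The pair of nested intervals near Mgam followed. Mgam encodes maltase-glucoamylase, a starch-digesting enzyme of the gut. The shorter interval read 9.05 in EpiSC against 6.31 in ELA-EpiSC, differing by -2.74, and its other probe differed by -2.73. The longer interval read 8.86 and 6.22, a difference of -2.65, while its 4 other probes ranged from -2.39 to -0.30. The signal was thus close to the lowest detected level in ELA-EpiSC and clearly above it in EpiSC. The size depended on the background correction, and the shorter interval differed by -4.04 with an offset of 0 and by -5.03 with the processed signal, the longer by -4.09 and -4.92. Averaging all detected probes gave -1.60 for the longer interval. Mgam itself was dim, at 6.77 in EpiSC and 6.17 in ELA-EpiSC. It lies on the same strand and the intervals extend across its probe.

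A bright transcript with a large difference lay 8015 bases from Smad5, on the opposite strand. Smad5 is one of the proteins that carry the BMP signal from the receptor to the nucleus. The transcript read 12.50 in EpiSC against 10.93 in ELA-EpiSC, differing by -1.58, and its 2 other probes lay between -1.56 and -1.30. Smad5 read 13.17 and 12.89, so the gene differed by -0.29 and stayed within 2-fold.

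Near Ppm1b, which encodes a metal-dependent protein phosphatase, the transcript and the gene went in opposite directions. The transcript lies on the strand of the gene, 6705 bases downstream of its probe, and read 10.87 in EpiSC against 9.65 in ELA-EpiSC, differing by -1.23. Ppm1b read 13.52 and 14.28, a difference of 0.76. A shorter interval nested in the first, with its own probe, read 11.18 and 10.21, a difference of -0.97. The 5 other probes of the longer interval ranged from -1.35 to 0.11, so its probes did not all follow the brightest. The reverse strand of the longer interval was detected in EpiSC only, at 6.39 against 6.09.

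Lmx1b, a LIM homeodomain transcription factor of limb and midbrain development, was dim at 7.05 and 6.91. The transcript upstream of it on the opposite strand, whose probe ends in the polyadenylation signal, read 8.86 in EpiSC and 7.75 in ELA-EpiSC. Its difference was -1.11, and the 2 other probes lay between -1.12 and -0.69.

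The transcript near Gm14325 was measured by a single probe and read 8.47 in EpiSC against 7.21 in ELA-EpiSC, differing by -1.25. That probe shares a run of 47 bases with a probe of another interval of chromosome 2, and its named interval, of 350551 bases, is the longest of all. Near Nemp2, listed on the array as Tmem194b and encoding a nuclear envelope membrane protein, the transcript read 9.32 and 8.26, a difference of -1.07. The gene read 9.41 and 9.76. For this transcript no other probe within 10 kb that did not overlap the first was detected. The 3 remaining transcripts higher in EpiSC lay near Mfsd5 (8.03 and 6.98), Mrpl33 (12.31 and 11.29) and Ttll7 (8.92 and 7.91), and were named after their values were seen. Mrpl33, which encodes a protein of the mitochondrial ribosome, differed by -0.62 in the direction of its neighbour. For Ttll7 the other probes of the interval differed by only -0.43 to -0.26, and the reverse strand of the same interval, at a mean of 6.58, differed by 1.36 at its brightest probe and by -0.26 at its other one.

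Among the 8 transcripts higher in ELA-EpiSC the differences were smaller, from 1.00 to 1.39. The largest lay near Abi1, an adaptor of the WAVE complex that drives actin assembly, on the opposite strand. It read 8.18 in EpiSC and 9.57 in ELA-EpiSC. Its 3 other probes ranged from -0.02 to 0.45, and the difference rests on the 1 probe, while Abi1 differed by 0.30.

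Near Cdyl2, a chromodomain protein that binds methylated histones, the pair of nested intervals on the strand of the gene both reached 2-fold. The longer read 8.25 in EpiSC against 9.45 in ELA-EpiSC, differing by 1.20, and its 4 other probes lay between 0.89 and 1.51. The shorter read 9.12 and 10.19, a difference of 1.07, and its 2 other probes were at 1.31 and 1.46. Cdyl2 itself read 7.66 and 8.54, a difference of 0.88, so the gene and both transcripts were higher in ELA-EpiSC.

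Zdbf2, an imprinted gene expressed from the paternal allele, was the 1 gene that reached 2-fold together with its neighbour. The transcript, measured by 1 probe, read 9.12 in EpiSC against 10.14 in ELA-EpiSC, differing by 1.02. The gene read 8.42 and 9.50, a difference of 1.08. The named interval runs across the gene's probe on the same strand, with the member probe 1479 bases downstream. A second interval of the same strand, 9906 bases from that gene probe differed by -0.25.

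Herc6, an interferon-induced ubiquitin ligase, also moved with its neighbour. The transcript, whose interval runs across the gene's probe on the same strand 283 bases away, read 8.27 in EpiSC against 9.37 in ELA-EpiSC, differing by 1.11. Herc6 read 7.28 and 8.13, a difference of 0.85. The transcript whose interval crosses the probe of Micos10 on the same strand, listed as Minos1 and encoding a subunit of the complex that shapes the cristae of mitochondria, went against its gene. It read 7.98 and 9.14, a difference of 1.16 with other probes at 1.17 and 1.28, while Micos10 read 15.45 and 15.00.

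The last transcripts higher in ELA-EpiSC lay near genes that hardly differed. Near Shq1, an assembly factor of H/ACA small nucleolar ribonucleoproteins, the transcript read 8.71 and 9.84 and the gene 9.86 and 9.74. No other probe of this interval that did not overlap the first was detected, so the difference rests on 1 probe. Near Usp27x, a deubiquitinating enzyme, the transcript read 7.63 and 8.63, a difference of 1.00 at the limit itself with other probes at 0.72 and 0.74, and the gene was dim at 6.28 and 6.33. Just inside the limit of 2-fold therefore stood the transcripts near Usp27x and Ttll7, and just outside it those near Kifc1 (0.98) and Ppm1b (-0.97).

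**Figure D2:**
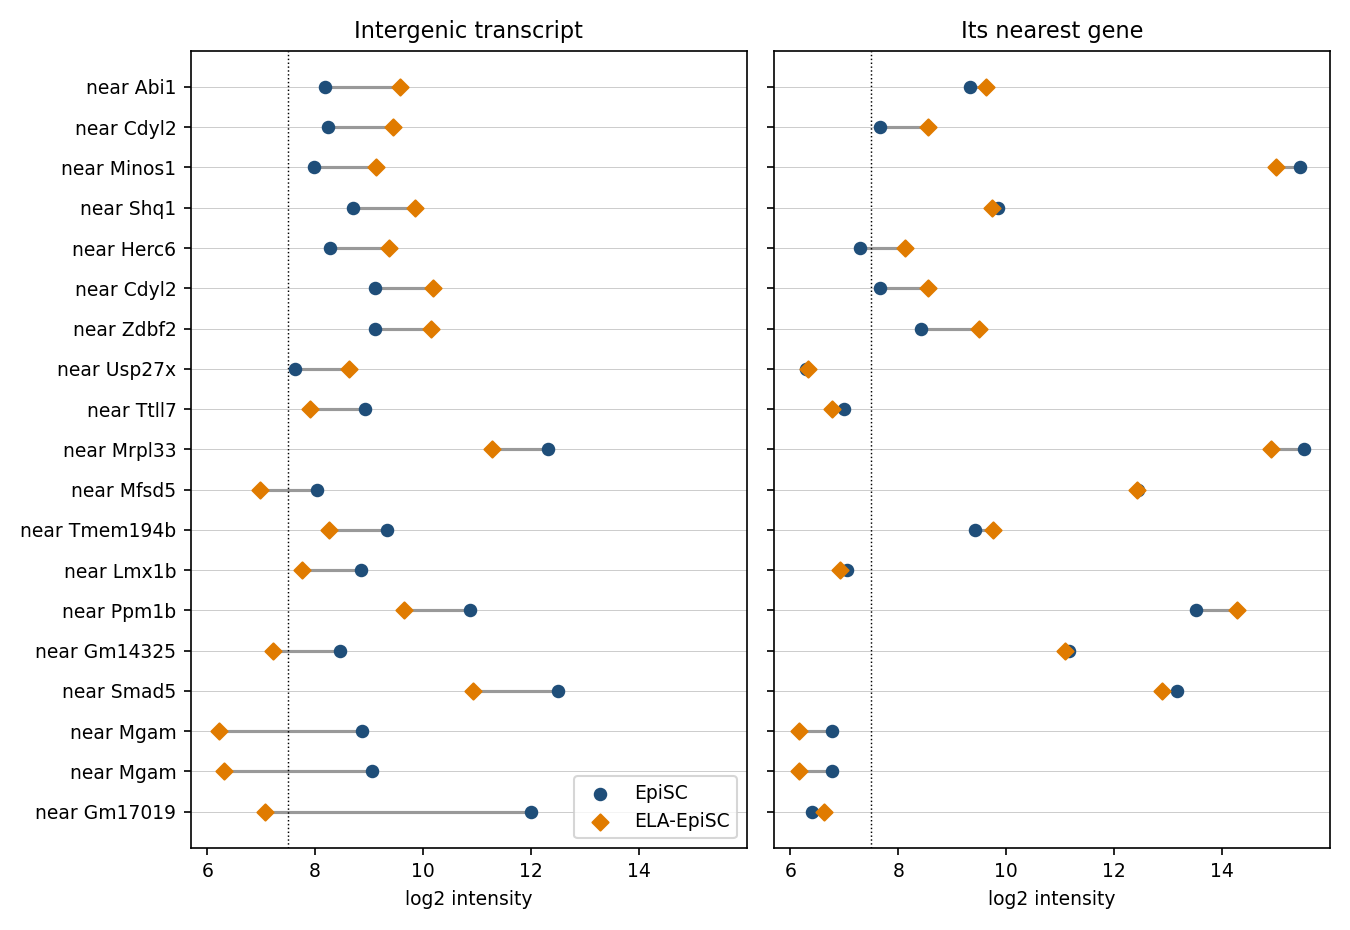
Log2 intensity in EpiSC (blue circles) and ELA-EpiSC (orange diamonds) is shown for the 19 intergenic transcripts with a 2-fold difference, 1 per line and named by the nearest gene, on the left, and for that gene on the right. Each point is 1 array, the dotted line marks a log2 intensity of 7.5, and the long lines of the Gm17019 and Mgam neighbours on the left have no counterpart among their genes on the right.

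The probes of a transcript were compared with each other as a check that does not depend on a gene. A second probe that did not overlap the first was detected for 293 of the 353 transcripts. Across these, the differences of the brightest and the second probe had r = 0.87 and a Spearman correlation of 0.71, and without the 2 transcripts farthest from the median r was 0.80. The points share their 2 arrays, and overlapping intervals share sequence. Of the 15 members past 2-fold that had a second probe, the second probe had the same sign in 15 and reached 2-fold in 10.

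**Figure D3:**
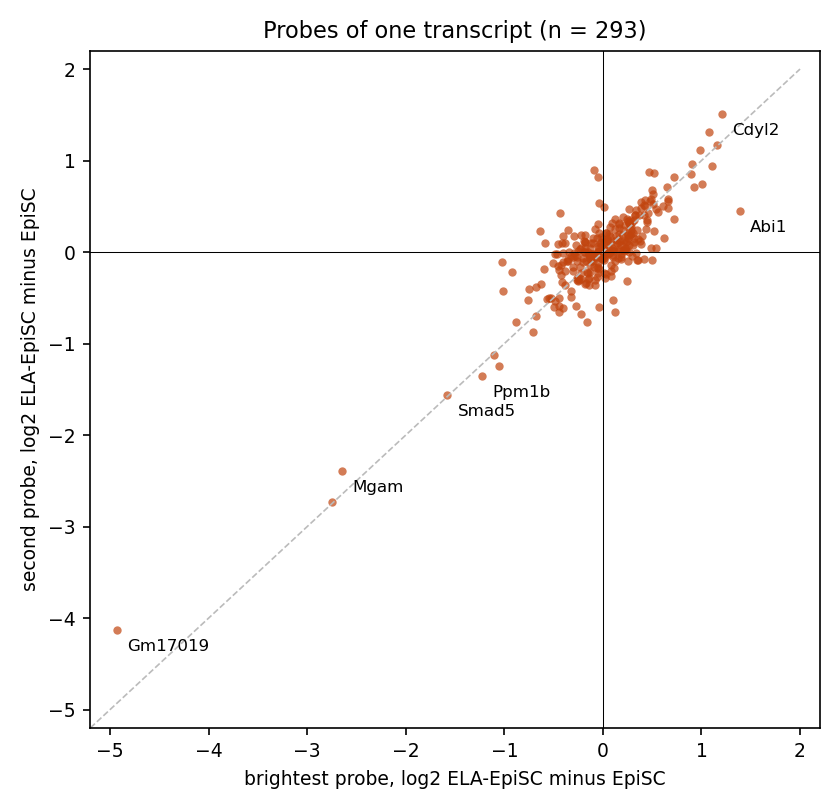
Each point is 1 of 293 transcripts with 2 non-overlapping probes. The x axis gives the log2 difference, ELA-EpiSC minus EpiSC, of the brightest probe and the y axis that of the second probe, with a dashed line of equality. The Mgam, Smad5 and Ppm1b neighbours lie near that line, while those of Gm17019, at -4.93 and -4.13, and Abi1, at 1.39 and 0.45, lie off it.

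Detection on 1 array alone was about as common as over the whole array and concerned dim probes. Of the 856 transcripts, 794 were detected on both arrays, 32 (3.74%) on the EpiSC array only and 30 (3.50%) on the ELA-EpiSC array only. Over all 25872 detected features the shares were 4.21% and 3.01%. Each bound was set against the transcript's own reading on the other array or that array's lowest detected level, whichever was higher. The largest were at least 1.27-fold for EpiSC and at least 1.46-fold for ELA-EpiSC. Such lower bounds leave the true size unknown, and these dim probes depended on the background correction. The neighbour of Dynap differed by 0.54 with the offset of 50, by 1.70 with an offset of 0 and by 3.69 with the processed signal, and the neighbour of Nkx1-1 by -0.35, -1.01 and -1.60. The highest bounds in EpiSC belonged to the neighbours of Nkx1-1, a homeodomain factor (6.45 and 6.10), of Arl13a, a small GTPase of the ARF-like family (at least 1.25-fold), and of Ppm1b on its reverse strand (at least 1.21-fold). In ELA-EpiSC they belonged to the neighbours of Dynap (5.97 and 6.52), of Znhit6, a factor in the assembly of box C/D small nucleolar ribonucleoproteins (at least 1.40-fold), and of Hmgn3, a nucleosome-binding protein (at least 1.34-fold). Hmgn3 itself differed by 1.09.

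The brightest members barely differed. The transcript near Acbd3, a Golgi protein, read 15.32 in EpiSC and 15.56 in ELA-EpiSC, and the one near Abraxas2, listed as Fam175b and a scaffold of a deubiquitinating complex, read 15.32 and 15.12. The transcript near Traf5, an adaptor of tumour necrosis factor receptors, read 15.19 and 15.22. The probes of the other two lay almost on the probe of the gene. The transcript 25 bases from Cdc42, a small GTPase of cell polarity, read 15.22 and 15.49 with the gene at 15.33 and 15.63, and the transcript 36 bases from Snx6, a sorting nexin of endosomes, read 14.68 and 14.46 with the gene at 13.35 and 12.95. For both, the interval crosses the gene's probe on the same strand.

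A member and its nearest gene were then set side by side. Distance, strand, side and overlap were taken from the gene's nearest probe. The gene took the value of its brightest detected probe, which need not be the nearest one. The gene was detected for 811 of the 856 members, and in 291 pairs, over 202 genes, both sides reached a mean log2 of 7.5. The sign of the difference was the same in 169 pairs (58.1%), with r = 0.18 and a Spearman correlation of 0.23 across pairs. The correlation describes these pairs, which share both arrays and, where several members have 1 gene, the gene. Of the 291 pairs, 262 had neither side past 2-fold, 12 the transcript alone, 16 the gene alone and 1 (Zdbf2) both, while 0 had both in opposite directions.

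Divided by distance and strand, the pairs on the same strand under 2 kb apart were most alike. In those 68 pairs the sign was the same in 51, and the differences had r = 0.60 and a Spearman correlation of 0.60. The value was r = 0.66 without the 2 pairs farthest from the median and r = 0.54 with 1 pair for each of the 51 genes. On the opposite strand under 2 kb the 26 pairs had the same sign in 53.8% and r = 0.02. At 2 to 5 kb the same-strand pairs (61) had r = 0.05 and the opposite-strand pairs (29) had r = -0.09. At 5 to 10 kb the values were r = 0.13 over 66 pairs and r = 0.24 over 41 pairs. Divided by side, at any distance up to 10 kb, the 25 opposite-strand pairs upstream of the gene's probe had the same sign in 72.0% and r = 0.43, and the 71 downstream had 47.9% and r = -0.02. On the same strand r was 0.38 over 50 upstream pairs and 0.16 over 145 downstream. The difference between these values was not tested.

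The same-strand pairs under 2 kb were divided by how the probes lie. Where the member probe overlapped the gene's nearest probe, r was 0.87 over 16 pairs, and where it did not, r was 0.46 over 52. The overlapping probe need not be the one that gave the gene's value. Where the named interval crossed the gene's probe, r was 0.65 over 45 pairs, and where it did not, r was 0.46 over 23 pairs, of which 73.9% had the same sign. Upstream of the gene's probe r was 0.79 over 25 pairs and downstream it was 0.49 over 43. All of these values were above those of the same-strand pairs beyond 2 kb.

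Intergenic transcripts farther than 10 kb from a gene gave 47.2% of the same sign and r = 0.07 at 10 to 20 kb over 195 pairs, 57.3% and r = 0.16 at 20 to 50 kb over 281 pairs, 54.4% and r = 0.25 at 50 to 100 kb over 204 pairs, and 55.1% and r = 0.09 beyond 100 kb over 185 pairs. On the opposite strand at 50 to 100 kb r was 0.50 over 89 pairs. Their Spearman correlation was only 0.20, with 56.2% of the same sign, so that r is not read as a likeness across the pairs. Neighbouring RefSeq mRNA genes with probes within 10 kb of each other had the same sign in 53.5% of 2016 pairs and r = 0.11. Under 2 kb on the same strand, 40 such pairs of mRNA genes had r = 0.19.

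**Figure D4:**
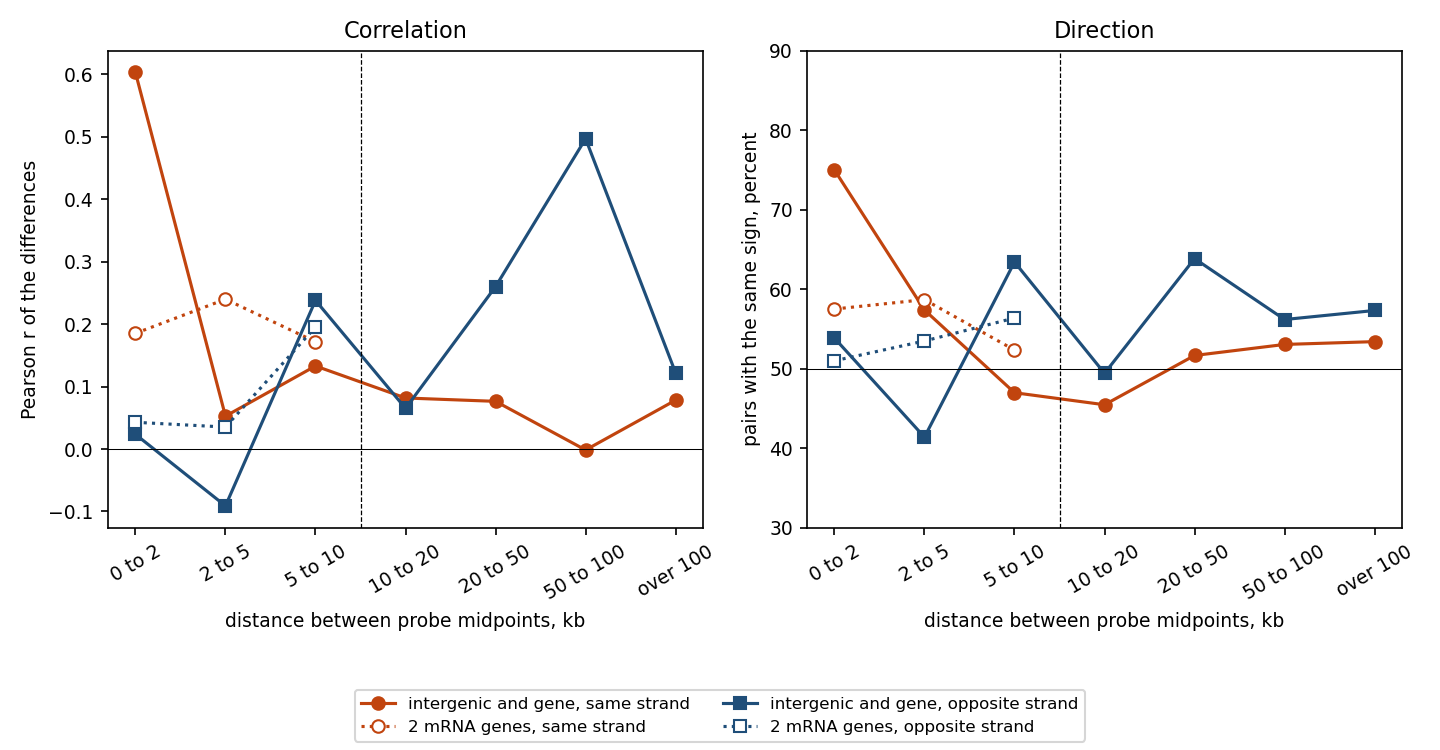
Pearson r of the log2 differences (left) and the percent of pairs with the same sign (right) are plotted by distance between probe midpoints in kb, for pairs on the same strand (red circles) and on opposite strands (blue squares). Filled symbols are an intergenic transcript with its nearest gene, open symbols are neighbouring mRNA genes, and the vertical dashed line is the 10 kb limit. The value of 0.60 for same-strand pairs under 2 kb is the highest r on the plot. The next is 0.50 for opposite-strand pairs at 50 to 100 kb, outside the limit, where the Spearman correlation was 0.20.

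The pairs with a large difference of the gene were then taken. A total of 13 genes in 17 of the 291 pairs (5.84%) differed by 2-fold or more, 10 toward ELA-EpiSC and 3 toward EpiSC. Their 17 transcripts differed by -0.85 to 1.02, with 13 of the 17 within 0.5 of 0, and 5 had the sign of the gene. Since 82.2% of all 353 transcripts lay within 0.5 of 0, that count is not particular to these pairs. It was 11 of 12 for pairs over 2 kb apart and 1 of 4 for same-strand pairs under 2 kb. All of these genes are given here, and they were listed after their values were seen.

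The gene with the largest difference was S100a6, a calcium-binding protein, at 12.67 in EpiSC and 15.79 in ELA-EpiSC. The transcript 9862 bases away on the same strand read 8.45 and 8.36. Isg15, an interferon-induced ubiquitin-like modifier, read 10.25 and 13.17, a difference of 2.92. The 3 transcripts about 4 kb from it, at 4001, 4061 and 4100 bases, differed by -0.20, -0.37 and -0.08 and included both strands. Irf1, a transcription factor of the interferon response, read 12.40 and 14.78, while the transcript 5356 bases away on the opposite strand read 7.61 and 7.78.

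Cyr61, a matricellular protein induced by serum and by YAP signalling, read 13.05 and 15.23, a difference of 2.18. Its neighbour at 4690 bases on the opposite strand differed by 0.66 in the same direction. Anxa5, a phospholipid-binding annexin, read 12.45 and 14.15, and the transcripts of its interval, 1 on each strand, differed by -0.15 and -0.05. Junb, a subunit of the AP-1 transcription factor, read 7.72 and 9.15, a difference of 1.43, and its same-strand neighbour at 5292 bases differed by -0.44. Hspb1, a small heat shock protein, differed by 1.15 and its neighbour by -0.15.

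Pou3f1, a POU factor of the epiblast and of neural progenitors, read 12.57 and 14.02, a difference of 1.46, and the transcript 3466 bases away on the opposite strand read 8.91 and 8.62, a difference of -0.29. Crabp2, which binds retinoic acid, differed by -1.02 with its neighbour at 0.09, and Trib2, a pseudokinase, differed by -1.02 with its same-strand neighbour at 0.25. The remaining 2 genes besides Zdbf2 had a transcript almost on top of a probe of the gene. Kifc1, a kinesin of the mitotic spindle, differed by 1.05 and the transcript 1 base from it by 0.98, reading 10.99 in EpiSC and 11.97 in ELA-EpiSC. The RIKEN gene 6720489N17Rik differed by -1.76 and the transcript 21 bases away by -0.85.

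The pairs were also read from the transcripts. Of the 13 transcripts past 2-fold whose gene reached the mean of 7.5, the gene was within 0.5 of 0 in 7, differed by 0.5 to 1 in the same direction in 4 and in the opposite direction in 1 (Ppm1b), and reached 2-fold in 1 (Zdbf2). The gene had the sign of the transcript in 9 of the 13.

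**Figure D5:**
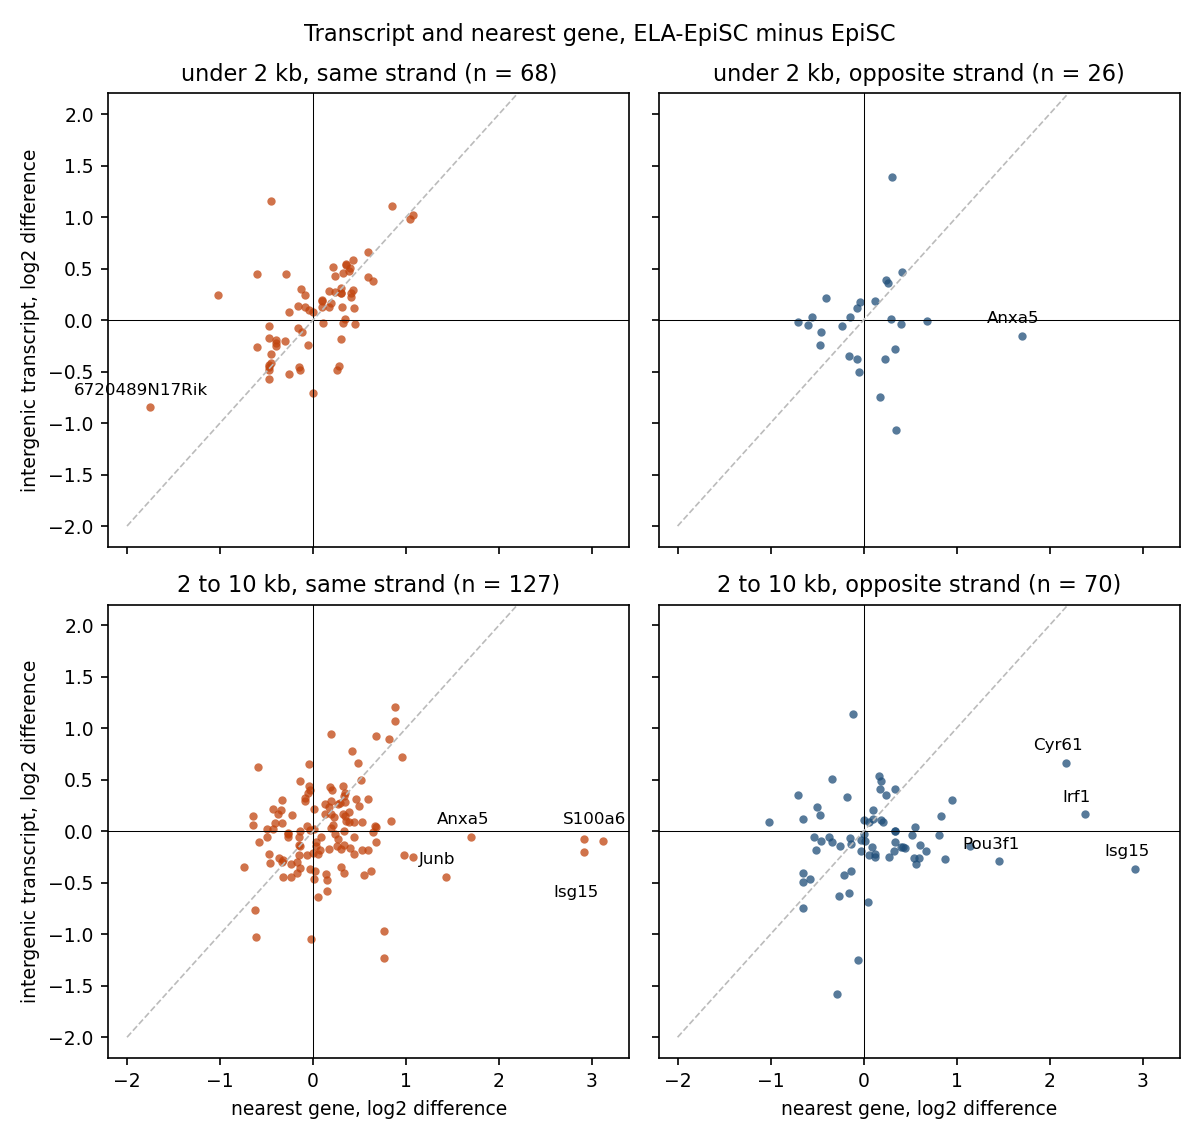
The log2 difference of an intergenic transcript (y axis) is plotted against that of its nearest gene (x axis), both ELA-EpiSC minus EpiSC, for 291 pairs in 4 panels by distance and strand. The dashed line marks equal differences and labels name genes past 1.4 on the log2 scale. The points follow the line most closely in the panel of same-strand pairs under 2 kb. Isg15, S100a6, Irf1 and Anxa5 lie far to the right with transcripts near 0, while Cyr61 lies there with a transcript above 0.

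Intervals with a member on each strand let both strands of 1 stretch be compared. Of the 169 such intervals, 39 had both strands at a mean of 7.5 or more. The differences of the strands had the same sign in 24 of 39 (61.5%) and r = 0.11. The gap between the differences had a median of 0.36, reached 0.5 in 10 intervals and 1 in 2. The largest gap, 1.47, was in the Cdyl2 interval. Its forward strand, opposite to the gene, read 10.56 in EpiSC against 10.29 in ELA-EpiSC, differing by -0.27 against the 1.20 of its reverse strand. Near Saysd1 the reverse strand read 12.77 and 11.89 and the forward strand 11.18 and 11.36, a gap of 1.06, with the forward probe at a GC content of 78.3%. Near Nup205, a scaffold protein of the nuclear pore, the forward strand read 9.67 and 10.45 and the reverse strand 9.65 and 9.50, with the reverse probe at a GC content of 76.7%.

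Members beside genes of pluripotency or development were counted. Lists of pluripotency and epiblast genes, developmental transcription factors, signalling genes and chromatin regulators were used. The share of listed genes among all genes of the array was not counted, so no list can be called rare or common beside members. Of the 353 members 5.38% reached 2-fold, and of all features 9.03%, so a count of 0 among a handful of members says little. Of the 856 members 8 lay near Pou3f1, Sall1 or Tet1 of the pluripotency list, 4 of them with a mean of at least 7.5, and 0 reached 2-fold. Near Sall1, a zinc finger factor of the pluripotency network, the forward and reverse transcripts differed by 0.16 and -0.31 and the gene by -0.47. Near Tet1, which oxidizes methylated cytosine, the transcript read 11.89 and 11.63 and the gene 11.48 and 11.12.

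Developmental transcription factors were the nearest gene of 19 members over 13 genes, among them Hoxb4, Hoxb5, Six2 and Irx2. Of these 6 reached the mean of 7.5, with differences from -0.31 to 0.39. The count past 2-fold was 0, over too few members to be read against the share of all members. The transcript near Six2, a homeodomain factor of the kidney, read 10.51 and 10.66 while Six2 read 10.26 and 11.09. Signalling genes had 9 members, 4 of them above the mean of 7.5 and 1, near Smad5, past 2-fold. The chromatin list had 9 members, of which 2, near Tet1 and Hdac11, reached the mean of 7.5 and differed by -0.26 and -0.06. No member lay nearest to a gene of the primitive streak list or of the marker lists of visceral endoderm, neural, mesenchymal and trophoblast cells, each with a count of 0. Of the 353 members above the mean of 7.5, 341 were in no list, with a median of -0.01. They held 8 of the 8 transcripts higher in ELA-EpiSC and 10 of the 11 higher in EpiSC, which is about their share of the members.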

How the data were processed

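Total RNA of EpiSC and ELA-EpiSC was measured on 1 Agilent SurePrint G3 mouse array each, and groups were taken from the sample titles. Spot intensity was deposited unscaled and linear, as extracted by the authors with Feature Extraction 10.7.3.1 per the file headers (9.1 in the submitters' processing notes), with probe positions on mm9. Per the labels 50 ng of RNA was labelled. The authors also deposited log2 values per probe, background-corrected and quantile normalized with limma, which served as an alternative.

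Mean signals were background-corrected by normexp (offset 50) in limma 3.58.1 under R 4.3.3. Control and outlier-flagged spots (158 in EpiSC, 117 in ELA-EpiSC) were left out, the 2 arrays were quantile normalized, log2 was taken and spots of 1 probe were averaged. Detection required the well-above-background flag on 0.5 or more of a probe's spots. A gene or transcript took its brightest detected probe. For a feature detected on 1 array only, the bound was taken against its own log2 reading on the other array. Where that reading was below the lowest detected log2 signal of that array (5.89 in EpiSC, 6.11 in ELA-EpiSC), the lowest detected signal was used. The offset compresses differences of dim probes, and quantile normalization hides a shift shared by all genes. Nearest genes were found with pandas 2.3.3 under Python 3.11.15, and current symbols were matched in a RefSeq table for 846 of 856 members. With 1 array per group no test was run, and 2 arrays set the precision. The choice of members, brightest probes and nearest genes and the counts past 2-fold were tested on simulated probes of a single chromosome and strand. Normalization, detection, strand, overlap and second probes were not part of that test.

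The transcripts named were the 8 largest differences per direction, the 3 largest bounds per array, the 5 brightest, the pairs with both sides past 2-fold and the 3 intervals whose strands differed most, plus those stated as chosen later. The members and gene lists were chosen with earlier results of these data known.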

Additional observations from a re-analysis of the deposited data

How the results depend on the processing

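Alternatives of signal, scaling, threshold, distance and probe choice were tried, 22 listed with the design and 2 added after seeing the data (1 member per group of overlapping intervals, and the second probe of each transcript). No paired analysis was possible because there was a single array in each group. Of 261 values over all members or pairs, 215 stayed within a set limit and 46 did not. The limit was 1.5 times for a count, the spot error for a median or SD, and a fixed margin for GC content. For percents and r it was an interval that treats pairs as independent, which they are not. Some values could not move, so the tally does not measure stability. Detection on 1 array does not depend on signal or scaling, and spike-in scaling leaves SD and r unchanged. Of the 16 named transcripts past 2-fold, 10 stayed past it under all 13 alternatives of signal, scaling, detection and probe averaging, 6 were under 2-fold in at least 1, and 0 changed sign.

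The values that moved follow, and the cause was not tested except where the alternative's own construction gives it. The split of 8 transcripts toward ELA-EpiSC and 11 toward EpiSC became 14 and 4 with median scaling, 37 and 4 with spike-in scaling, 3 and 4 with a minimum mean of 9, 22 and 25 at 1.5-fold, 0 and 3 at a log2 difference of 2.5, and 4 and 7 for the second probe. Over all features the split of 759 and 745 became 1114 and 516 with median scaling and 2497 and 304 with spike-in scaling. It was 528 and 483 with a minimum of 9, 1841 and 1826 at 1.5-fold and 66 and 108 at 2.5. The members' count toward EpiSC became 5 within 5 kb, 19 within 20 kb and 5 when all detected probes were averaged. The median difference became 0.16 with median scaling and 0.53 with spike-in scaling. The SD of 0.53 became 1.25 with the deposited log2 values, 1.13 with outlier spots kept and 0.38 with no minimum. The 62 transcripts detected on 1 array only became 34 within 5 kb, 103 within 20 kb, 39 with 1 member per group of overlapping intervals and, by construction, 0 where detection on both arrays was required.

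The 58.1% of pairs with the same sign became 64.9% with the processed signal, 66.3% with probes averaged and 89.3% with spike-in scaling, which adds a common shift to both sides. Spike-in scaling also gave 92.6% for same-strand pairs under 2 kb and 87.2% for strand pairs. The 1 pair with both sides past 2-fold became 3 with an offset of 0, an offset of 16 or the processed signal, 5 with median scaling, 12 with spike-in scaling, 2 with the median pixel signal or the deposited values, and 0 with a minimum of 9 or without intervals that cross the gene probe. The r of 0.18 over all pairs became 0.39 with probes averaged, and the r of 0.60 for same-strand pairs under 2 kb became 0.42 with the deposited values, 0.41 with outlier spots kept and 0.75 with the nearest probe as the value of the gene. The 1 member past 2-fold beside a listed gene became 2 with median scaling, spike-in scaling or 20 kb, and 0 within 5 kb.

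With 1 array per group, the spot error is the sole error these data give, and dim probes near the background limit what a 2-fold difference can show.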
